A study of Xenopus allofraseri with 8 samples.

Results

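The 8 adult male Xenopus allofraseri of this series, clawed frogs caught in a single pond, were compared here by their maximal burst acceleration. The 4 frogs of highest acceleration (samples A, C, F and H, 48.42 to 61.83 m per s squared) were set against the 4 of lowest acceleration (samples B, D, E and G, 43.80 to 47.75 m per s squared), so that all 8 of the 8 frogs sequenced entered the comparison, 4 on each side. The cut fell between frog H at 48.42 and frog B at 47.75 m per s squared. Acceleration was taken from escape bursts, in the methods as an instantaneous swimming acceleration, and it is separate from the chase along a track that measured endurance. All frogs were caught in the wild, kept in aquaria and put through the performance tests, with no other treatment described. Polyadenylated RNA was sequenced from their right knee extensors.

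The study itself sorted the frogs into 2 locomotor categories from 4 performance traits. Acceleration splits them differently but not independently: the high side held 1 endurant frog (A) and 3 burst-performant frogs (C, F, H), and the low side held 1 burst-performant frog (B) and 3 endurant frogs (D, E, G). Frogs A and B alone part acceleration from category, and the other 6 frogs lie on the same side in both groupings. The quasi-likelihood and DESeq2 comparisons were therefore also fitted with category as a second term.

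Acceleration of a jump or a kick depends on how fast and how forcefully the leg extensors shorten. In fast skeletal fibres this rests on the myosin motors and the thin filaments of the sarcomere, on regulators such as myosin-binding protein C, and on calcium buffers of the parvalbumin family, which are abundant in frog muscle and speed relaxation. Mitochondrial genes, by contrast, support sustained work. Whether transcripts of these systems differ between frogs of high and low acceleration was the question of the comparison.

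Depth is given in units of 1000000 read pairs assigned to the assembly, and it ranged from 4.45 to 17.36 units per frog. Assigned pairs did not follow the read pairs that the study reported in every frog. By its report C had the most pairs of all frogs, and D had more than A and G. Both had few assigned pairs for their reported pairs, and why was not tested. The high side held 7.51 (A), 9.12 (C), 12.97 (F) and 4.45 (H) units, and the low side 13.61 (B), 4.72 (D), 17.36 (E) and 9.79 (G) units. The sides overlapped in depth, with means of 8.51 ± 3.55 and 11.4 ± 5.41 units (SD, n = 4 each; exact permutation test over 70 assignments, two-sided p = 0.371, where 0.0286 is the smallest p the design allows). The 100 most abundant Trinity genes took 58.9 ± 5.95% of the counts on the high side and 57.9 ± 2.79% on the low side (exact permutation p = 0.743). Every pair of libraries within a side differed by more than sampling noise, with a chi-square per degree of freedom of 20.8 to 57.2.

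Frogs of the same side did not resemble each other more than frogs of different sides. Over the 35656 Trinity genes tested (groups of assembled transcripts that share an assembly component, filtered at a CPM above 1 in at least 2 frogs), the mean distance on log2(CPM + 1), where CPM is counts per 1000000, was 151.9 between sides and 153.8 within sides. The difference of -1.88 ran against a separation (exact permutation test over 35 splits, one-sided p = 0.771). The nearest neighbour lay on the same side for frog D (G) and frog E (B) only, whereas A, C, F, G, H and B had their nearest neighbour on the other side. Frog H stood farthest from 6 of the other frogs, and it alone defined the low end of the first principal component, at -115.1 against -34.1 to 40.9 in the rest. H also had the shallowest library, and the part of its depth in this position was not tested. On the second component frogs C and D, of opposite sides, lay apart at -70.1 and -63.9, against -1.2 to 53.4 in the rest. These are the frogs with few assigned pairs for their reported pairs, and the part of this in their position was not tested.

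**Figure D1:**
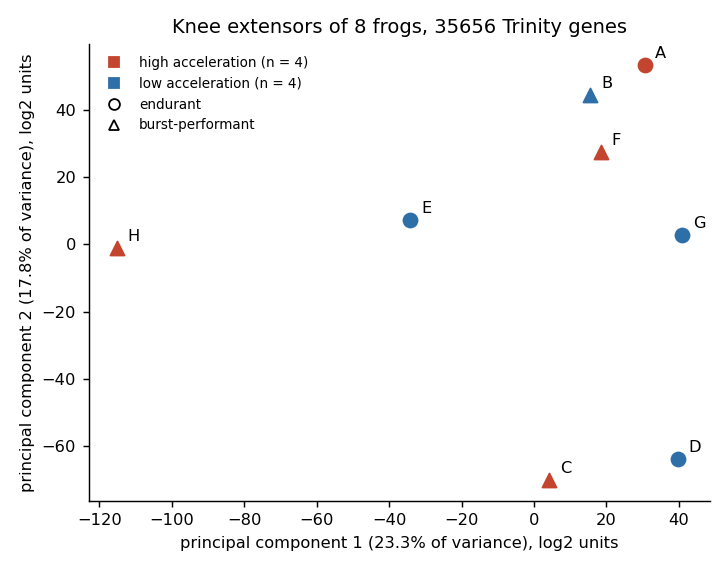
Principal component scores of the 8 frogs on log2(CPM + 1) of 35656 Trinity genes (x axis, component 1, 23.3% of variance; y axis, component 2, 17.8%), 1 point per frog, with colour for the acceleration side and shape for the locomotor category. The 4 high-acceleration frogs are spread among the low-acceleration frogs, and frog H lies apart at -115.1 on component 1. Frogs C and D lie at -70.1 and -63.9 on component 2, against -1.2 to 53.4 in the rest.

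No transcript and no Trinity gene was called between the sides. The edgeR quasi-likelihood test, with a false discovery rate of 0.05 and an absolute log2 fold change of 2, called 0 of 55631 transcripts (0.0%) and 0 of 35656 Trinity genes (0.0%), and the lowest adjusted p was 0.186 for a transcript and 1.0 for a Trinity gene. At an unadjusted p under 0.05 there were 1713 transcripts (3.08%), of which 766 were higher on the high side and 947 on the low side. The same limit was met by 1250 Trinity genes (3.51%), 560 higher on the high side and 690 on the low side. A uniform distribution would put 5% of features in that bin of 0.05, so that both shares lay below it. The sides did not overlap in CPM for 1379 transcripts (2.48%), 585 in favour of the high side and 794 in favour of the low side, and for 895 Trinity genes (2.51%), 377 and 518.

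The count depended on the tool. The edgeR exact test, the classic test that the same package offers, called 119 transcripts (0.214%), 47 higher on the high side and 72 on the low side, and 22 Trinity genes (0.0617%), 9 and 13. DESeq2 called 122 transcripts and 16 Trinity genes, and limma on log2(TPM + 1), with TPM for transcripts per 1000000, called 3 transcripts and 0 Trinity genes. For scale, the exact test called 109 transcripts and 45 Trinity genes between the locomotor categories in the same 8 frogs. The study, which used edgeR, also reported 109 transcripts between them, and 103 of its 103 annotated entries matched the exact test. The quasi-likelihood test called 0 between the categories as well (2038 transcripts and 1579 Trinity genes at an unadjusted p under 0.05). The comparisons use the same frogs and their calls are not independent of each other.

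With category as a second term, fewer features reached an unadjusted p under 0.05: 1023 transcripts (1.84%) and 776 Trinity genes (2.18%). Again 0 were called by the quasi-likelihood test, with a lowest adjusted p of 0.888 and 1.0, whereas DESeq2 with the same term called 48 transcripts and 5 Trinity genes. Of the 1713 transcripts that reached this limit for the sides alone, 791 also did with the term, and of the 1250 Trinity genes 526 did. None of these features changed its sign when the term was added. They were selected for a difference between the sides in the same frogs, which favours a kept sign, so this is no evidence of independence from category.

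**Figure D2:**
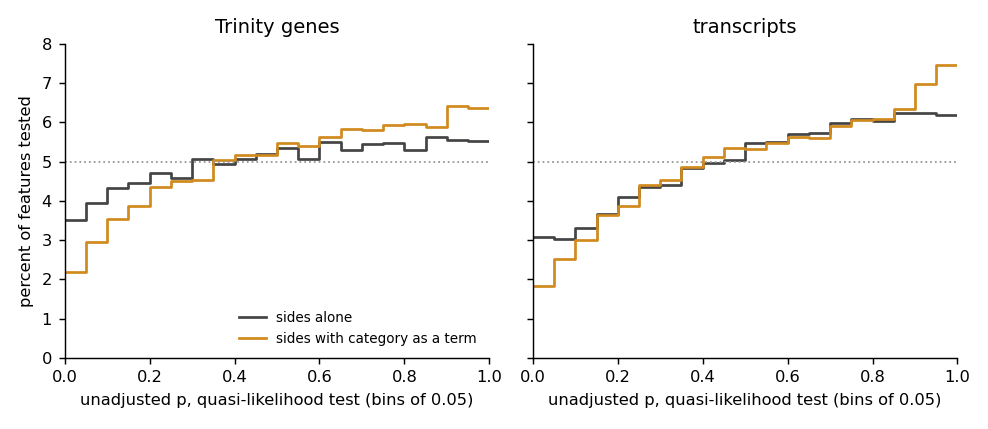
Unadjusted p-values of the quasi-likelihood test in bins of 0.05 (x axis) as percent of the features tested (y axis), for 35656 Trinity genes and 55631 transcripts, for the sides alone and with category as a term; the dotted line marks the 5% of a uniform distribution. The lowest bin holds 3.51% of Trinity genes and 3.08% of transcripts for the sides alone, and 2.18% and 1.84% with category as a term.

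Abundant genes gave the smallest share. Among the 809 Trinity genes of 100 CPM and over on average, 16 reached an unadjusted p under 0.05 (1.98%), and their median absolute log2 fold change was 0.23. Among the 17771 Trinity genes under 2 CPM, 610 did (3.43%), with a median absolute log2 fold change of 0.43. Large fold changes were thus found mostly among scarce genes, with 3.62% of the genes under 2 CPM beyond a log2 fold change of 2 and 0.989% of those of 100 CPM and over.

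None of the features of lowest p has an annotation in the sources used here, so these features are given by their assembly identifiers. TR25196|c4_g1_i3, a transcript of 1806 bases, had 87, 93, 258 and 68 counts in A, C, F and H and 0 in B, D, E and G. Counts were assigned to it in all high-acceleration frogs and in no low-acceleration frog, at 14.8 ± 3.7 CPM against 0 (SD, n = 4). This is at least 225-fold with the floor set at 3 counts over the low side. Counts split between transcripts of a Trinity gene are estimates, so a count of 0 need not mean absence. TR25196|c4_g1_i3 missed the threshold in the quasi-likelihood test (adjusted p = 0.209) and passed it in the exact test (adjusted p = 5.88e-15). The total of its Trinity gene of 3 transcripts overlapped between the sides, at 31.4 ± 4.84 CPM on the high side and 29.3 ± 3.56 CPM on the low side, and the transcript held 48.1% of the gene's counts on the high side.

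TR13298|c0_g1_i2, of 1437 bases, repeated this pattern with 36, 25, 77 and 12 counts in A, C, F and H and 0 in each low-acceleration frog, at least 66.8-fold. The adjusted p was 0.49 by the quasi-likelihood test and 1.16e-08 by the exact test. It made up 70.1% of the counts of its Trinity gene on the high side, and the gene total again overlapped between sides (5.03 ± 2.42 against 4.05 ± 1.22 CPM).

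In the other direction, TR61392|c2_g1_i2, of 820 bases, had 327, 291, 711 and 431 counts in B, D, E and G but 4, 6, 24 and 2 in A, C, F and H. The level was 42.9 ± 16 CPM on the low side and 0.856 ± 0.475 CPM on the high side, a pooled ratio of 36.6 (95% counting interval 26.3 to 52.4). It had the lowest adjusted p of all transcripts, 0.186. TR87561|c6_g2_i1, of 2567 bases, stood at 64.9 ± 15.6 CPM on the low side and 5.81 ± 2.35 CPM on the high side (log2 fold change -3.48 ± 0.39 SE, adjusted p = 0.219). Both transcripts separated the sides in every frog, with 33.0% and 23.1% of the counts of their Trinity genes on the low side. The first gene's total was itself higher on the low side, at 123 ± 50.6 CPM against 59.9 ± 13.2 CPM. The second gene's total was 300 ± 96.3 CPM on the low side and 251 ± 40.3 CPM on the high side.

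Among whole Trinity genes, TR3921|c0_g2 had the lowest p. It stood at 11.1, 2.69, 8.12 and 12.7 CPM in B, D, E and G and at 0.363, 0.719, 0.491 and 1.15 CPM in A, C, F and H. The log2 fold change was -3.79 ± 0.56 (SE), and frog D, the lowest of its side, still lay above frog H, the highest of the other. TR61392|c0_g1, which shares its assembly cluster with the transcript TR61392|c2_g1_i2, had 24, 27, 51 and 31 counts in B, D, E and G against 1 count in H and 0 in A, C and F, a pooled ratio of 99.6 (95% counting interval 17.6 to 3960.0).

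On the high side, TR80237|c0_g1 had 22, 10, 33 and 2 counts in A, C, F and H and 1, 0, 1 and 0 in B, D, E and G, a pooled ratio of 44.7 (95% counting interval 11.9 to 377.0). TR48024|c6_g1 stood at 29.2, 23.3 and 18.2 CPM in A, C and F, at 0.286 CPM in H and at 0.224 to 0.757 CPM in the low-acceleration frogs. Here frog H sided with the low-acceleration frogs. Without frog H this gene was the only Trinity gene called by the quasi-likelihood test (log2 fold change 5.4, adjusted p = 0.00806), and likewise without frogs B and H together, which lie nearest the cut (adjusted p = 0.0403). With all frogs the adjusted p of each of these 4 Trinity genes was 1.0 by the quasi-likelihood test and 0.000144 to 0.00361 by the exact test.

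**Figure D3:**
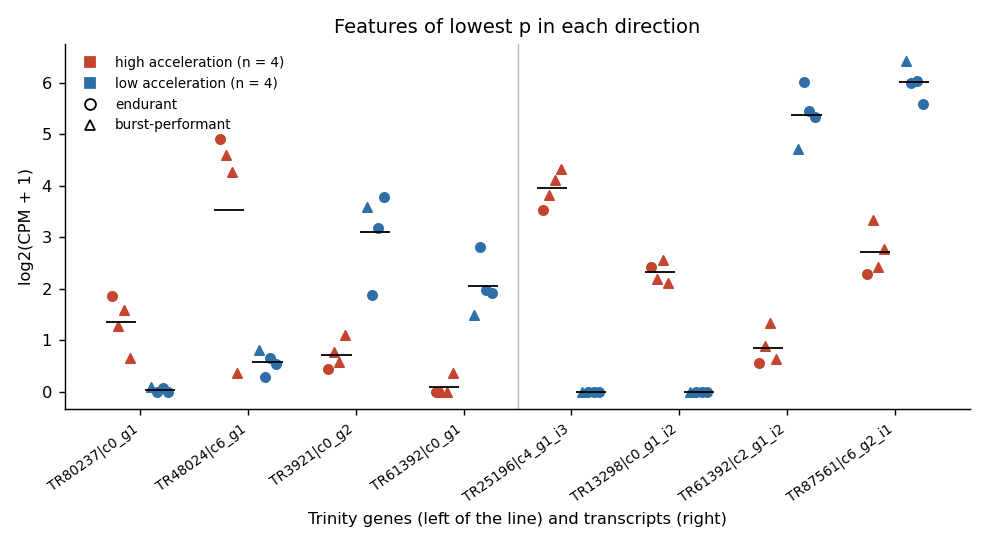
Level in log2(CPM + 1) (y axis) of the 2 Trinity genes and the 2 transcripts of lowest p in each direction (x axis), 1 point per frog, colour for the acceleration side, shape for the category and a bar at the mean of each side (n = 4). The sides separate for all features shown but TR48024|c6_g1, where frog H (0.286 CPM) lies among the low-acceleration frogs.

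The 119 transcripts called by the exact test mostly had no assigned count on the lower side. Their median count on the higher side was 100 over 4 frogs (28 to 2972), and in 78 of them (65.5%) the other side had no count at all. The higher side carried a count in all 4 frogs for 104 and in 3 frogs for 15, and the sides did not overlap for 102. In 16 a single frog held more than 50% of the summed CPM of the higher side. Of the 119, 12 were the sole transcript of their Trinity gene. The others made up a median of 31.0% of the gene's counts and the gene total differed by a median of 0.17 on log2(CPM + 1) in their direction. The quasi-likelihood test gave all 119 an unadjusted p under 0.05 but an adjusted p of 0.186 or above.

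For most of these transcripts the gene total was not called by the exact test, and a few Trinity genes had transcripts called in opposite directions. By the exact test they numbered 2 of the 115 Trinity genes with a called transcript (0 of 49 by the count rule below). These 2 were looked at after their values were seen. In the first, a transcript of 2112 bases had 32, 17, 19 and 32 counts in B, D, E and G and 0, 2, 2 and 0 in A, C, F and H, while a transcript of 2154 bases had 12, 13, 33 and 9 counts in A, C, F and H and 4, 0, 0 and 0 in B, D, E and G. The gene as a whole had 310 counts on the high side and 398 on the low side. In the second, a transcript of 3343 bases had 22, 7, 38 and 29 counts in B, D, E and G and 2, 0, 0 and 0 in A, C, F and H, and its counterpart of 3346 bases ran the other way with 28, 19, 47 and 5 counts in A, C, F and H and 5, 1, 11 and 5 in B, D, E and G. Counts of such similar transcripts are estimates from shared reads, and the files do not tell isoforms from alleles of the wild frogs.

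A simple count rule without a statistical test was applied to the same estimated counts. Many of its transcripts are also among those called by the exact test, so it is no separate evidence. Transcripts that had 5 counts or more in all 4 frogs of 1 side and fewer than 0.5 in each of the opposite 4 numbered 11 on the high side and 39 on the low side, of 211305 transcripts with any count. The locomotor categories gave 25 endurant-only and 15 burst-only transcripts by the same rule. The high-side transcripts had a median of 88.0 counts in all (60 to 506) and the low-side transcripts 72.0 (28 to 787). All 11 and 38 of the 39 belonged to Trinity genes that were also detected on the other side, in which they made up a median of 29.3% and 29.9% of the counts. The most abundant low-side transcript, of 3147 bases, had 276, 88, 341 and 82 counts in B, D, E and G. The low side also had more assigned read pairs on average (above), and the part of depth in the 11 against 39 was not tested.

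Gene names were available for 103 transcripts, in 96 Trinity genes. They are those the study listed for a difference between the locomotor categories in these same frogs, so they are no independent evidence on the sides, which share 6 of 8 frogs with the categories. Gene levels below are totals of the Trinity gene, and the listed transcript alone can differ from them in size and direction. Of the 55 genes grouped into lists, 0 were called, 0 reached an unadjusted p under 0.05 (against 3.51% of all Trinity genes tested) and 0 separated the sides (against 2.51%). On the log2 fold change, 30 of the 55 lay above 0 and 25 below, with a median of 0.06 (all Trinity genes tested, 0.0).

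Genes of the sarcomere and of actin filaments stood slightly higher on the high side, 6 of 8 with a log2 fold change above 0 and a median of 0.35, and 0 of 8 passed the test. All but rcsd1 were listed by the study for a transcript higher in burst-performant frogs, the category of most high-acceleration frogs. The direction is therefore no independent evidence on acceleration. With category as a term the median turned to -0.15 (3 above and 5 below 0), and without frog C it turned to -0.11, while it stayed at 0.24 to 0.37 under the other scalings. The tropomodulin tmod4, which caps the pointed end of thin filaments, had the lowest p of the list. It stood at 158, 300, 125 and 232 CPM in A, C, F and H and at 126, 169, 144 and 110 CPM in B, D, E and G. Frogs C and H lay above every low-acceleration frog, and A and F lay within their range (log2 fold change 0.57 ± 0.32 SE, unadjusted p = 0.103, adjusted p = 1.0). The listed transcript of tmod4 alone had a log2 fold change of 0.02.

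The fast-type myosin-binding protein mybpc2 reached 373 CPM in H and stood at 111 to 202 CPM in the other 7 frogs. Its log2 fold change of 0.36 ± 0.39 (SE) came with this high value in the shallowest library, and the difference of 0.21 on log2(CPM + 1) turned to -0.13 without frog H and to -0.25 without frogs B and H. LOC108697262, an entry of this list known here by its locus number only, was highest in C at 1350 CPM. The other frogs of both sides ranged from 491 to 804 CPM. Its difference of 0.14 on log2(CPM + 1) turned to -0.16 without frog C and to -0.01 without frog E. arpc4, a subunit of the Arp2/3 complex that nucleates actin branches, stood at 34.2, 46.6, 35.3 and 43.2 CPM on the high side (A, C, F, H) and at 42.0, 23.1, 34.5 and 26.4 CPM on the low side (B, D, E, G). Here the endurant frogs D and G were lowest, and the sides overlapped (log2 fold change 0.34 ± 0.26 SE).

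lmo7, a LIM domain protein of junctions and actin, and rcsd1, which binds the capping protein CapZ, had log2 fold changes of -0.15 ± 0.25 and -0.14 ± 0.37 (SE). Their listed transcripts alone had 1.6 and -4.58 (quasi-likelihood test, unadjusted p = 0.0561 and 0.0259), and neither passed after adjustment. LOC108701289, which the study named as an ortholog of the striated muscle kinase speg, and fsd2, a fibronectin type III and SPRY domain protein, followed neither grouping in full. LOC108701289 had 20.6, 9.89 and 14.3 CPM in C, F and B and 0 in the other 5 frogs, frog H included. fsd2 had 6.61, 3.68 and 6.36 CPM in the same frogs and was at 0 in the others. Burst-performant frogs of both sides had counts for these genes, and H had none. Each is a single short transcript here, of 407 bases for LOC108701289 and 525 bases for fsd2, so a level of 0 need not mean that the gene was not expressed. Both genes were listed by the study as higher in burst-performant frogs, so their presence there restates the listing.

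The calcium buffer ocm4.1, of the parvalbumin family, was by far the most abundant of the genes grouped into lists. It stood at 5160, 16000, 5280 and 14600 CPM in A, C, F and H and at 9180, 6220, 5580 and 4620 CPM in B, D, E and G. The high side fell into a pair of high frogs (C and H) and a pair within the low range (A and F), so that the log2 fold change of 0.68 ± 0.46 (SE) did not pass the test (unadjusted p = 0.17). With category as a term it was 0.15. The listed transcript of ocm4.1 alone stood at 2.42 to 185 CPM per frog, with a log2 fold change of -0.23. gca.S, the calcium-binding protein grancalcin, had a log2 fold change of 0.03 ± 0.3 (SE), against a difference of -0.02 on log2(CPM + 1) and of -0.1 under library-size scaling.

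Genes of mitochondria and metabolism lay lower on the high side without exception in sign. All 8 had a log2 fold change below 0 under each scaling, with a median of -0.47, and 0 of 8 passed the test. Each was listed by the study for a transcript higher in endurant frogs, the category of most low-acceleration frogs. The shared sign is therefore no independent evidence on acceleration. With category as a term 3 lay above 0 and 5 below, with a median of -0.04. Only frogs A and B part acceleration from category, so their shares in the sign cannot be told apart. Leaving out frog A, the endurant frog of the high side, moved the median to -2.0, and leaving out frog H moved it to -0.29. Of the well-detected members, atp5f1b, the beta subunit of ATP synthase, stood at 2060, 1970, 1530 and 1700 CPM in A, C, F and H and at 1490, 2950, 2810 and 1780 CPM in B, D, E and G. Frogs D and E were highest and frog B lowest, all on the low side (log2 fold change -0.31 ± 0.31 SE, unadjusted p = 0.339).

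The mitofusin mfn1, which fuses outer mitochondrial membranes, had 37.5, 30.5, 47.5 and 26.6 CPM on the high side and 34.4, 50.2, 41.5 and 48.4 CPM on the low side (-0.29 ± 0.26 SE on the log2 scale). esrra, a nuclear receptor that drives oxidative genes, ranged from 7.19 to 48.7 CPM among high-acceleration frogs and from 15.1 to 40.5 CPM among low-acceleration frogs. Its widest spread was within the high side, between C and F (log2 fold change -0.33 ± 0.53 SE). ppox, an enzyme of heme synthesis, had a log2 fold change of -0.09 ± 0.49 (SE), and its difference of -0.2 on log2(CPM + 1) turned to 0.11 without frog F and to 0.03 without frog E.

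The other 4 metabolic genes were scarce, and nfs1.L, dgat2.L and gls2 followed category in frog A. nfs1.L, the cysteine desulfurase of iron-sulfur cluster assembly, stood at 5.45 CPM in A and 2.24, 3.31 and 3.07 CPM in D, E and G, and at 0 in B, C, F and H. dgat2.L, of the last step of triglyceride synthesis, had 1.94 CPM in A, 0.224, 3.36 and 2.16 CPM in D, E and G, and again 0 in the burst-performant frogs of both sides. Frog A, of high acceleration, had counts for both, and frog B, of low acceleration, had none. Their listed transcripts are short, at 384 bases for nfs1.L and 405 bases for dgat2.L, so a level of 0 need not mean that the gene was not expressed. Both genes were listed by the study as higher in endurant frogs, so this split restates the listing. gls2, a mitochondrial glutaminase, had 1.45 CPM in A and at most 0.144 CPM in C, F and H, against 0.227 CPM in B and 1.08 to 2.02 CPM in D, E and G. cskmt.L, which methylates citrate synthase, came closest to the limit of the test, at 1.09, 0.144, 0 and 0.286 CPM in A, C, F and H and 0.0757, 2.69, 1.8 and 3.88 CPM in B, D, E and G (log2 fold change -2.47 ± 1.16 SE, unadjusted p = 0.0591). With category as a term it was -0.91. Frog A lay between the burst-performant frogs and the other endurant frogs for this gene. The listed transcript of cskmt.L alone had 1 count in A, against 12, 31 and 43 in D, E and G. Its log2 fold change was -5.61 (quasi-likelihood test, unadjusted p = 0.00735), and it did not pass after adjustment.

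Of the 3 stress and apoptosis genes, ddit3 differed most. It encodes CHOP, the transcription factor of the endoplasmic reticulum stress response, and stood at 12.6, 2.59, 8.78 and 2.86 CPM in A, C, F and H and at 5.45, 17.2, 10.3 and 19.1 CPM in B, D, E and G. Frogs A and F lay within the low-acceleration range, and B lay below the other low-acceleration frogs. The log2 fold change was -0.92 ± 0.56 (SE, quasi-likelihood test, unadjusted p = 0.131), and -0.23 with category as a term. The study listed ddit3 for a difference between the categories, so a split by category restates the listing. tp53inp2.S, a cofactor of autophagy, had a log2 fold change of -0.35 ± 0.46 (SE). mapk8, the stress-activated kinase JNK1, was level across the frogs at 25.8 to 31.4 CPM on the high side and 23.6 to 33.0 CPM on the low side (0.06 ± 0.22 SE, with a difference of -0.01 on log2(CPM + 1) under library-size scaling).

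**Figure D4:**
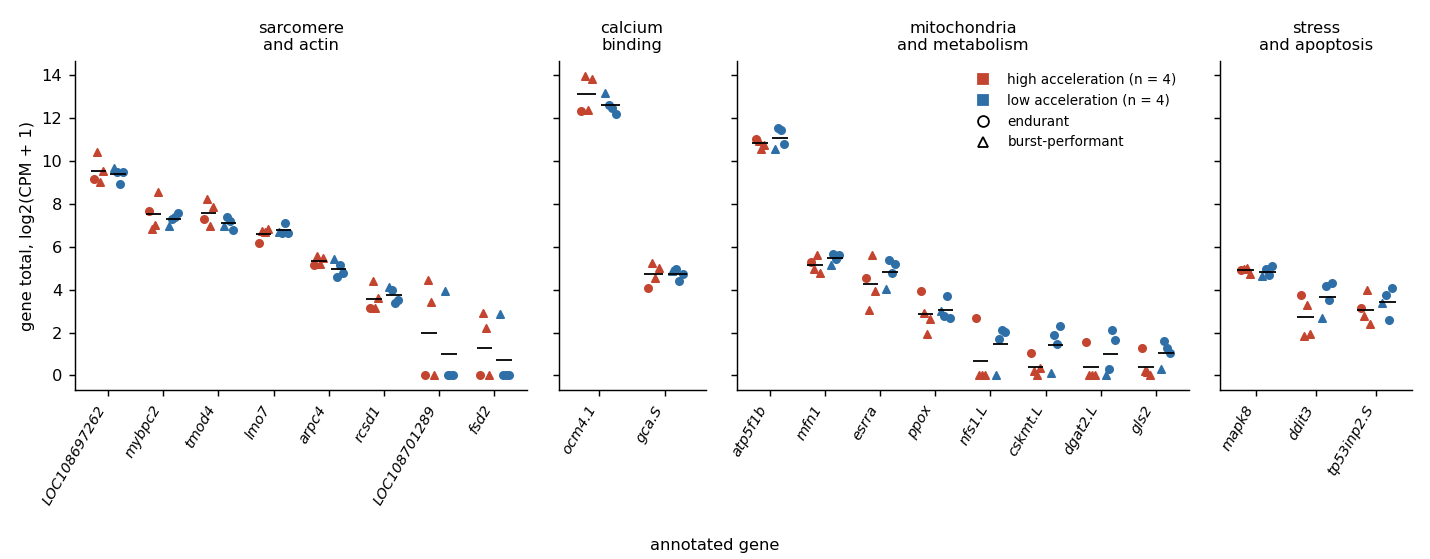
Gene totals in log2(CPM + 1) (y axis) of the annotated genes of sarcomere and actin, calcium binding, mitochondria and metabolism, and stress and apoptosis (x axis), 1 point per frog, colour for the acceleration side, shape for the category and a bar at the mean of each side (n = 4). The sides overlap for every gene shown. Both nfs1.L and dgat2.L, listed by the study as higher in endurant frogs, are at 0 in all burst-performant frogs.

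In the remaining lists the largest differences were no clearer. Among them arfgap1.S, a GTPase-activating protein of the Golgi, stood at 3.51, 2.73, 2.15 and 4.01 CPM on the high side and 2.42, 2.24, 1.57 and 1.8 CPM on the low side, a difference of 0.43 on log2(CPM + 1) (exact permutation p = 0.0857). fbxo3, a subunit of a ubiquitin ligase, differed by 0.40, but this came with a single frog, A at 120 CPM, against 20.3 to 41.8 CPM in the other 7, and without A it turned to -0.12.

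Lower on the high side were cnksr2, a scaffold of Ras signalling, with a difference of -1.12 (log2 fold change -1.96 ± 1.28 SE, and 0.11 with category as a term), ctsc, the lysosomal cathepsin C, with -0.26, and ranbp3.L, a cofactor of nuclear export, with -0.21. Transcription and chromatin genes had 7 of 8 log2 fold changes above 0 (6 of 8 on TPM) and a median of 0.21, which was 0.26 with category as a term and 0.12 without frog A, and 0 of 8 passed the test. Focal adhesion and signalling genes had 5 of 8 above 0 (median 0.17, and 0.06 without frog E) and proteolysis genes 3 of 4 (median 0.23, but -0.05 without frog A). Vesicle traffic and RNA processing genes were centred near 0, with medians of -0.01 and 0.02.

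**Figure D5:**
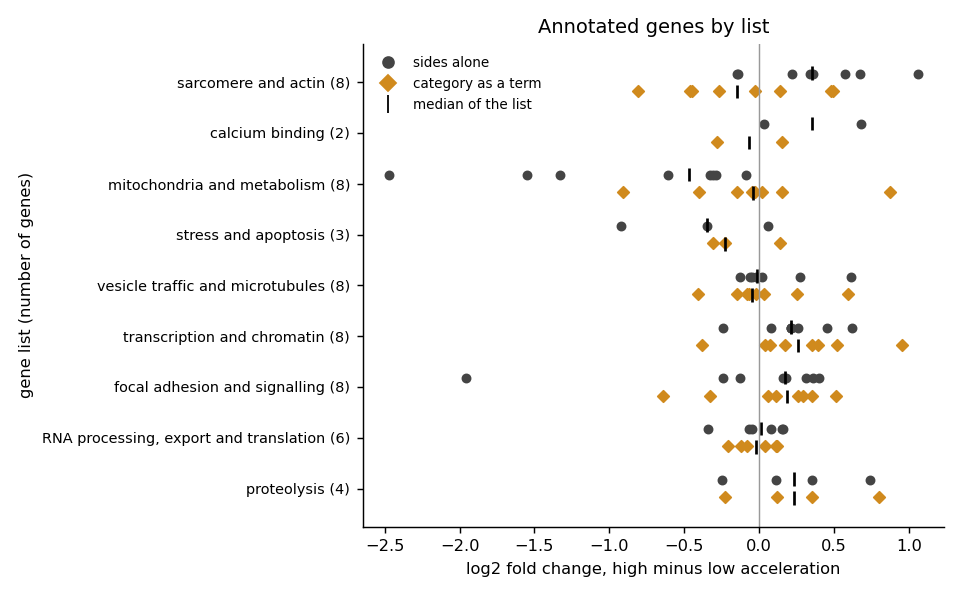
Log2 fold change, high minus low acceleration (x axis), of the 55 annotated genes in 9 lists (y axis), for the sides alone and with category as a term, with a bar at each list's median. With the term, the medians of sarcomere and actin (0.35 to -0.15), calcium binding (0.35 to -0.07) and mitochondria and metabolism (-0.47 to -0.04) move towards or past 0. Those of transcription and chromatin (0.21 and 0.26), focal adhesion and signalling (0.17 and 0.18) and proteolysis (0.23 and 0.24) change little.

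Of all 96 annotated genes, 3 reached an unadjusted p under 0.05 and 2 separated the sides, shares no higher than the 3.51% and 2.51% of all Trinity genes tested. The 3 lay outside the lists and were all lower on the high side: xicl, LOC108713633 and XELAEV_18028904mg (unadjusted p = 0.0029, 0.0264 and 0.0338). Only XELAEV_18028904mg also separated the sides, at 17.2, 15.5, 13.6 and 16.6 CPM in A, C, F and H and 19.8, 24.9, 33.3 and 19.4 CPM in B, D, E and G. It fell short of the adjusted threshold like the rest (log2 fold change -0.63 ± 0.26 SE, adjusted p = 1.0). tspan7, a tetraspanin of the cell membrane, separated the sides the other way, at 23.6, 34.8, 23.8 and 33.2 CPM against 23.5, 21.5, 20.4 and 20 CPM, by a gap of 23.5 to 23.6 CPM between frogs B and A (log2 fold change 0.43 ± 0.24 SE). These 4 genes were chosen after their values were seen.

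At the level of single transcripts, 12 of the 103 annotated ones (11.7%, against 3.08% of all tested) reached an unadjusted p under 0.05, 3 higher on the high side and 9 on the low side, all with an adjusted p of 1.0. All 103 had been listed for a difference between categories, which group 6 of the 8 frogs as the sides do. The larger share is therefore no independent evidence on acceleration. The exact test called 2 of the 103, and 119 of all 55631 transcripts tested (0.214%). The 2 had been listed for a difference between categories in which these frogs took part. The first is a transcript of mfn1, with 126, 300 and 268 counts in D, E and G and 0 in A, B, C, F and H. The second, of XELAEV_18004259mg, had 27, 190 and 99 counts in D, E and G and 0 in the same 5 frogs. Both, and a transcript of tp53inp2.S with 45, 75 and 142 counts, thus had counts only in the endurant frogs of low acceleration. They had none in A, the endurant frog of high acceleration.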

How the data were processed

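Polyadenylated RNA of the knee extensors of 8 frogs was made into ScriptSeq libraries and sequenced as paired reads. Per the labels and methods, the authors trimmed the reads with Trimmomatic, assembled the pooled reads de novo with Trinity and quantified each frog with kallisto. The deposited tables give, per transcript, estimated counts, which need not be whole, and TPM, transcripts per 1000000, scaled by the authors for length and depth. They list 218541 transcripts in 163981 Trinity genes. Estimated counts were rounded, and summed per Trinity gene (the identifier before its isoform number).

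Frogs were grouped by the acceleration values of the study. Features that passed a CPM of 1 in 2 frogs or more entered edgeR 4.0.16 (TMM scaling, quasi-likelihood F test, Benjamini-Hochberg over all tested) in R 4.3.3, with all 8 frogs, without and with category as a term. CPM values are TMM-scaled, and SE is the log2 fold change over the root of F. The exact test of edgeR, DESeq2 1.42.0, limma 3.58.1 on log2(TPM + 1) and log2(TPM + 0.1), other scalings and filters, and each frog left out were alternatives. The fits were tested on simulated data. Single values had exact permutation tests. The p-values treat frogs as replicates of a side, and counting intervals (95%, Clopper-Pearson) and the floor of 3 counts cover counting error only.

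Gene names come from the list of transcripts that the study annotated, joined where the edgeR exact test between categories gave exactly 1 transcript of the same direction, log2 fold change and false discovery rate, as for 103 of 103 entries. A name belongs to a transcript, and its Trinity gene total may hold other transcripts. Named are all genes of the first 4 lists, the 3 of largest difference in each direction in the others, and the 2 features of lowest p in each direction. 1 gene that this rule names is not reported here. Lists and sides were chosen with earlier results of these data known. Cell types other than muscle could not be checked for want of annotated markers.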

Additional observations from a re-analysis of the deposited data

Results flagged for a closer look

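Among 76 groups of 4 frogs examined (library measures, named genes and the features of lowest p, on each side), a single frog lay far from the other 3 of its side in 9. Chance gives about 1 in 20 for values that vary freely, a rate that cannot be applied here, since several genes were listed for a difference between the categories and in 5 of the 9 the other 3 frogs were all at 0. On the high side frog A stood apart for nfs1.L (5.45 CPM), dgat2.L (1.94 CPM) and gls2 (1.45 CPM), where the burst-performant frogs C, F and H were at or near 0. On the low side frog B stood apart for LOC108701289 (14.3 CPM) and fsd2 (6.36 CPM), where the endurant frogs D, E and G were at 0. In these 5 groups the frog that stood apart was the one whose locomotor category differed from the rest of its side, and the genes were listed for a difference between those categories.

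Frog H stood apart on the high side for TR48024|c6_g1 (0.286 CPM against 18.2 to 29.2) and for TR61392|c0_g1 (0.286 CPM, from 1 count, against 0). Frog E had the highest lmo7 of the low side (135 CPM against 98.0 to 101). Frog D had counts for 81606 Trinity genes, against 106740 to 110727 in the other low-acceleration frogs. It had the fewest assigned read pairs of that side, though the study reported more read pairs for D than for G.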

How the results depend on the processing

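The quasi-likelihood counts of 0 stayed at 0 with DESeq2 size factors, library size alone, a robust fit, filterByExpr and a CPM above 1 in 4 frogs, for transcripts and Trinity genes. They changed with the test: 119 transcripts and 22 Trinity genes by the exact test, 122 and 16 by DESeq2, 3 transcripts by limma on log2(TPM + 1), 6 on log2(TPM + 0.1), and 48 and 5 by DESeq2 with category as a term. With no filter 10 transcripts and 612 Trinity genes were called, over 211305 and 159077 features. Without frogs B and H 1 Trinity gene was called, and over single frogs left out the range was 0 to 1 (1 without frog H). Why the tools differ was not tested. Transcripts found on 1 side only numbered 50, and 90 with a minimum of 3 counts and 17 with a minimum of 10. Of the 55 listed genes 0 separated the sides, and 0 to 3 did with single frogs left out and 7 without frogs B and H, where fewer frogs make separation easier. The share among all Trinity genes tested was not counted in these smaller sets, so no conclusion is drawn from these counts. The distance and the share of the most abundant genes kept their direction and missed their thresholds in each alternative run, and depth had none. Among the values of named annotated genes under alternatives, 306 moved by less than the spread within sides and 6 by more. No paired analysis was possible because the replicate numbers only follow the order of the samples and mark no shared animal, batch or day.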
